A study of Homo sapiens with 18 samples.

Results

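The 28 genes described here encode most of the enzymes that make cholesterol, the proteins that sense sterols in the endoplasmic reticulum, and proteins that take up, move or export cholesterol. They were chosen by name, without a threshold on any measured value, out of 20374 gene IDs that had a row in at least 1 of 3 deposited tables. The choice was made with earlier results of these data known, so shares set beside those of all genes are descriptive. All 28 had a row in H460, and 27 each in H2023 and ABC-1. EBP in H2023 and ABCA1 in ABC-1 were not analysed here. RNA was profiled in 3 lines of human lung cancer, each treated for 24 h with CCS1477 or DMSO. CCS1477, also named inobrodib, binds the bromodomain shared by the acetyltransferases p300 and CBP, which are transcriptional coactivators. The dose is taken as 5 µM, as the sample labels give it, although the series text writes 5 mM.

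The 6 groups were H460 with CCS1477, H2023 with CCS1477 and ABC-1 with CCS1477, each set against the same line with DMSO, with 3 libraries per group and 18 in all. Both treatments lasted 24 h, and no label names a further agent or allele. H460 is labelled a large cell carcinoma line, H2023 a squamous carcinoma line and ABC-1 an adenocarcinoma line. The series describes H460 and H2023 as NRF2-activated and ABC-1 as wildtype. NRF2 switches on genes against oxidative stress. With ABC-1 as the one line of its kind, NRF2 state and other traits of the line cannot be told apart. The labels do not say whether replicates were separate cultures, so p-values reflect how far these libraries scatter, and that scatter may be technical.

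Cells build cholesterol from acetyl-CoA through mevalonate, isoprenoid diphosphates, squalene and lanosterol. When sterols in the endoplasmic reticulum are low, SCAP carries the SREBP transcription factors, encoded by SREBF1 and SREBF2, to the Golgi, where they are cut and released to raise transcription of the synthesis genes. When sterols are high, INSIG proteins hold SCAP back, and oxysterols activate the LXR nuclear receptors, which raise MYLIP and ABCA1. INSIG1 is itself a target of the SREBPs, as is SREBF2.

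Promoters were taken from RefSeq (GRCh38.p14) as windows of 300 bases around each gene start, and 25 of the 28 genes matched at least 1 of 32 such windows. ACAT2, FDFT1 and SQLE were the other 3. The 4 windows below belong to the gene of the main sterol regulator (SREBF2, chr22:41832855-41833154), a gene that rose in every line (INSIG1, chr7:155297628-155297927), a gene that fell in every line (FDPS, chr1:155308616-155308915) and a gene that moved in opposite directions between lines (MSMO1, chr4:165327419-165327718). All 4 lie on the plus strand. Capitals mark the letters of a sterol regulatory element (TCACNCCAC, or its shorter core CACNCCAC, which lies inside it) and of the CCAAT box that the factor NF-Y binds, on either strand, so that a CCAAT on the minus strand reads ATTGG. The SRE letters and the core are searched on both strands, and the core also counts where the longer element matches.
SREBF2: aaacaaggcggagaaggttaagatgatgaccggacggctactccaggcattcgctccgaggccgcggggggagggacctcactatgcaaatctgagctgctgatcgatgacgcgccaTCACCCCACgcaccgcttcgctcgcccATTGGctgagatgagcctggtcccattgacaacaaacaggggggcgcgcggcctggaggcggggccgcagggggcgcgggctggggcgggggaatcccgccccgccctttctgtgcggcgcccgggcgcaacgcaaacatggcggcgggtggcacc
INSIG1: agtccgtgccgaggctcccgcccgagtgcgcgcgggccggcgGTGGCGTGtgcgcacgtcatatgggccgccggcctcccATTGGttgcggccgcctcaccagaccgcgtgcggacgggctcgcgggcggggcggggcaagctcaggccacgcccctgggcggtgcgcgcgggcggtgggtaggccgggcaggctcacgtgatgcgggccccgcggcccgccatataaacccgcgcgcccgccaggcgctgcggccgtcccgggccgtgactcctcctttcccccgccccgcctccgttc
FDPS: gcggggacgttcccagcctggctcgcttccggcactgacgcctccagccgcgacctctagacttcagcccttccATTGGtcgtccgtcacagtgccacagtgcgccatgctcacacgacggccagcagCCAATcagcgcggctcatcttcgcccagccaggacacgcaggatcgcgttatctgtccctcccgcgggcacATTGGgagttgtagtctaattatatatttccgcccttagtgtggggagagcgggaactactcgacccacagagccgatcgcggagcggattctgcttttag
MSMO1: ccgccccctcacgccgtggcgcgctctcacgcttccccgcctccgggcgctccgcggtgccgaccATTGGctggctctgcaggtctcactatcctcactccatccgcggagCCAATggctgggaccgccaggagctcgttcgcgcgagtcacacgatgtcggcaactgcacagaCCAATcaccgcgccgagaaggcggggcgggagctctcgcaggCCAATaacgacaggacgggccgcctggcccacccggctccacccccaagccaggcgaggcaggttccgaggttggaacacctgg
The sterol regulatory letters TCACNCCAC began 133 bases before the start of SREBF2, with a CCAAT on the opposite strand 106 bases before it. The SREBF2 window was the 1 of the 32 windows with this match, and 1.13% of all 35116 promoter windows had one. The core CACNCCAC was in 6 of the 32 windows, from 5 genes (ABCA1, IDI1, INSIG1, SC5D and SREBF2), and in 5.87% of all windows. In INSIG1 it lay 208 bases before the start, on the opposite strand. CCAAT was in 20 of the 32 windows, from 18 genes, and in 34.6% of all windows. FDPS had 3 of them and MSMO1 had 4. The E-box CACGTG was in 6 windows, from 5 genes, and in 7.26% of all windows. The GC box GGGCGG was in 30 windows, from 24 genes, and in 45.0% of all windows. These matches describe letters in a window and do not show binding.

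Reads per library numbered 26652298 to 33568180 in H460, 15352631 to 18261159 in H2023 and 14483979 to 17483292 in ABC-1. Levels are given as CPM, a gene's share of the reads of its library scaled to a fixed total. For 1 library, counting alone leaves an error of 17.3 to 26.3% on a level of 1 CPM. Each change is the log2 fold of CCS1477 over DMSO on the authors' log2 scale of scaled reads plus 4, with the SE of the fit. CPM instead divide by library totals, which would raise the members' changes by a median of 0.07 (H460), 0.05 (H2023) and 0.06 (ABC-1), so small changes can depart from the CPM. A gene rose or fell where limma's Benjamini-Hochberg adjusted p, over all genes tested in that line, was under 0.05. These are bulk libraries, so fewer cells of a kind and less RNA per cell cannot be told apart. H460 replicate 1 with CCS1477 stood apart, with a mitochondrial share of 0.795% where the remaining 5 libraries of that line had 1.77 to 2.06%. Compared with its 2 replicates, it was off by 39.4 and 44.6 times counting noise (squared difference), while the 16 remaining replicate pairs of the study gave 2.34 to 7.91. Of 5 epithelial markers, KRT8, KRT18 and KRT19 were above 1 CPM in all DMSO libraries of each line, while EPCAM averaged 0.659 CPM in H460 with DMSO. CDH1 had no value in H460. It averaged 8.11 CPM with CCS1477 and 47.4 CPM with DMSO in H2023, and 315 CPM with CCS1477 and 244 CPM with DMSO in ABC-1. The markers gave little for the squamous label of H2023, with TP63 at 1.84 CPM in DMSO libraries and no value for KRT5, KRT6A, DSG3 or SOX2. A gene without a value is not shown to be silent, so only TP63 was measured for that label. KRT7, listed as an adenocarcinoma marker, had 608 CPM with CCS1477 and 1573 CPM with DMSO in H2023. The rest of that list was low or without a value there, with NAPSA at 0.248 CPM with DMSO and no value for NKX2-1 or SFTPB. The markers also gave little for the adenocarcinoma label of ABC-1, with NKX2-1 at 1.34 CPM, KRT7 at 1.89 CPM and no value for NAPSA or SFTPB in DMSO libraries. SOX2, listed as a squamous marker, had 66.7 CPM with CCS1477 and 149 CPM with DMSO in ABC-1. The remaining squamous markers were low or absent in ABC-1, with TP63 at 1.35 CPM with DMSO and no value for KRT5, KRT6A or DSG3. The H460 DMSO libraries were not uniform in these lists, with KRT7 from 1.24 to 19.7 CPM and KRT5 from 1.06 to 6.08 CPM. KRT6A ran from 0.548 to 0.788 CPM there, and NKX2-1 stayed below 1 CPM. Over all genes compared, the H460 DMSO pairs differed by 5.65 to 7.91 times counting noise. The cause of the KRT7 and KRT5 scatter was not tested. Markers of other cells (PTPRC, CD3E, PECAM1, COL1A1 and COL3A1) summed to 7.28 to 8.37 CPM with CCS1477 and 27.0 to 29.6 CPM with DMSO in H460. Their sum was 6.88 to 9.64 CPM with CCS1477 and 7.29 to 9.64 CPM with DMSO in H2023. In ABC-1 it was 22.6 to 23.6 CPM with CCS1477 and 6.84 to 8.03 CPM with DMSO, with no value for PTPRC, CD3E or PECAM1 in H460 or ABC-1. In H460 and ABC-1 those sums were collagens, while in H2023 PTPRC (1.58 CPM with CCS1477 and 1.04 CPM with DMSO) and PECAM1 (0.143 CPM with CCS1477 and 0.346 CPM with DMSO) added to COL1A1. Their part in the results was not tested.

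With CCS1477, sterol genes moved in both directions in each line. In H460, 21 of the 28 genes tested changed, against 56.1% of all genes. Of these, 11 rose and 10 fell, against 28.2% of all 13516 genes that rose and 27.9% that fell. In H2023, 18 of 26 changed, against 60.6% of all genes, and 9 rose and 9 fell, against 28.6% and 31.9% of all 14572 genes. In ABC-1, 23 of 27 changed, against 66.1% of all genes, and 16 rose and 7 fell, against 33.5% and 32.6% of all 13543 genes. The members' median log2 change in H460 was -0.04, beside 0.00 over all genes tested, in H2023 it was 0.02 beside -0.01, and in ABC-1 it was 0.34 beside 0.01. The CCS1477 and DMSO libraries did not overlap for 22 members in H460 (65.0% of all genes), 18 in H2023 (66.3%) and 22 in ABC-1 (71.8%). Without the library that stood apart, 11 members rose and 11 fell in H460. Over all genes, 7768 were then called in H460, beside 7584 with all libraries.

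Of 25 members tested in every line, 7 rose in all 3: IDI1, LSS, TM7SF2, MYLIP, INSIG1, SCAP and NPC2. That is 28% of them, beside 14.7% of the 11757 genes tested in every line. Another 4, or 16%, fell in all 3 lines, beside 12.7% of those genes: FDPS, CYP51A1, NSDHL and SREBF2. As the members were chosen with earlier results known, these shares do not test the set. The call of SREBF2 in ABC-1 depended on single libraries, as given with its values. Of the 15 members called in both H460 and H2023, 14 moved the same way, and NPC1 was the exception. Of the 17 called in both H460 and ABC-1, 15 moved the same way, and SQLE and MSMO1 did not. Of the 16 called in both H2023 and ABC-1, 12 moved the same way, and FDFT1, MSMO1, SREBF1 and NPC1 did not. Across members, Pearson's r of the log2 changes was 0.85 between H460 and H2023 (26 genes), 0.67 between H460 and ABC-1 (27 genes) and 0.59 between H2023 and ABC-1 (25 genes). The points of each r share their libraries and are not independent. TM7SF2, with 2.24 in both H460 and H2023, lies far above the other members, and r without it was not computed. Neither the same-way counts nor r were computed over all genes, so they are not read as particular to the members.

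**Figure D1:**
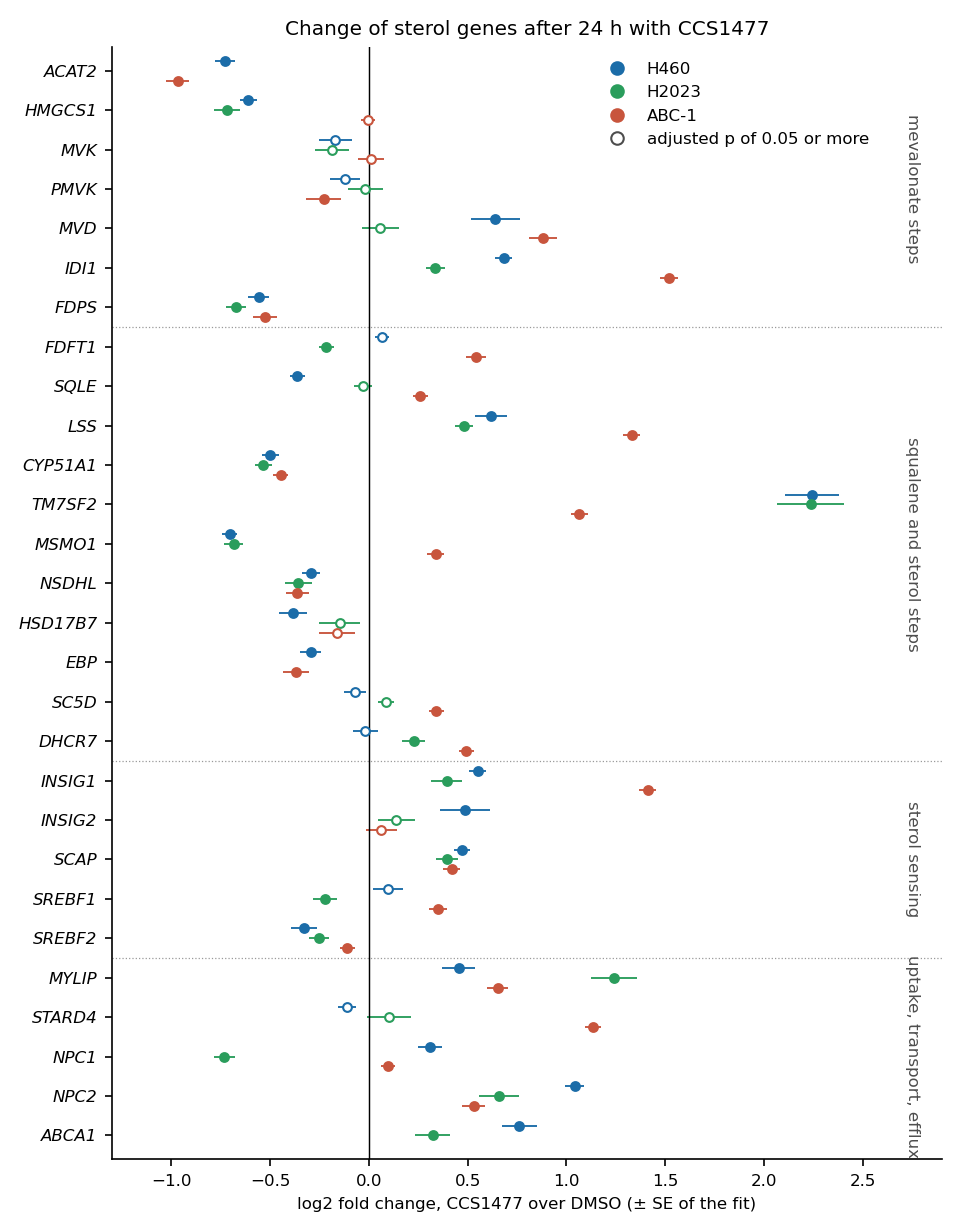
Log2 fold change of CCS1477 over DMSO for each of the 28 genes (horizontal axis, with the SE of the fit), grouped by role, with 3 libraries per group. Filled points passed the adjusted p of 0.05; TM7SF2 has the highest change in H460 (2.24) and H2023 (2.24), while IDI1 has the highest in ABC-1 (1.52).

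Of 7 enzymes from acetyl-CoA units to farnesyl diphosphate, some rose and others fell in each line. In H460, 2 rose and 3 fell, against 28.2% and 27.9% of all genes. In H2023, 1 of 6 rose and 2 fell, against 28.6% and 31.9%, and in ABC-1, 2 rose and 3 fell, against 33.5% and 32.6%. IDI1 (chromosome 10, 1039152 to 1049170, GRCh38) encodes the isomerase that supplies the starter unit of isoprenoid chains. IDI1 had 181, 174 and 187 CPM in the H460 CCS1477 libraries, against 105, 107 and 108 CPM in the H460 DMSO libraries. It had 70.4, 74.0 and 71.6 CPM in the H2023 CCS1477 libraries, against 56.4, 56.2 and 52.4 CPM in the H2023 DMSO libraries. It reached 238, 235 and 260.4 CPM with CCS1477 against 81.3, 82.2 and 81.5 CPM with DMSO in ABC-1. The groups were apart in every line, and the CCS1477 levels came to 1.69 (H460), 1.31 (H2023) and 3.00 (ABC-1) times DMSO. The log2 changes of IDI1 were 0.68 ± 0.04 in H460 (limma adjusted p = 7.50e-06), 0.34 ± 0.05 in H2023 (limma adjusted p = 1.10e-04) and 1.52 ± 0.05 in ABC-1 (limma adjusted p = 3.33e-10). IDI1 has near copies in the genome, so reads may be split between them. MVD (chromosome 16, 88651935 to 88663161) encodes the decarboxylase that makes isopentenyl diphosphate. MVD had 38.2, 28.7 and 26.7 CPM in the H460 CCS1477 libraries, against 19.1, 19.4 and 17.8 CPM in the H460 DMSO libraries. It had 21.0, 22.0 and 22.2 CPM with CCS1477 against 17.4, 20.9 and 22.3 CPM with DMSO in H2023, and 57.4, 53.3 and 61.0 CPM with CCS1477 against 27.5, 29.8 and 31.8 CPM with DMSO in ABC-1. In H460 and ABC-1 the groups were apart, and H460 replicate 1, the library that stood apart, was the highest of its line. MVD rose by 0.64 ± 0.12 in H460 (limma adjusted p = 0.00266) and by 0.88 ± 0.07 in ABC-1 (limma adjusted p = 6.91e-07), with 0.06 ± 0.09 in H2023 (limma adjusted p = 0.605). Without that library the H460 change was 0.49 (adjusted p = 2.96e-04).

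FDPS (chromosome 1, 155308748 to 155320666), which makes farnesyl diphosphate, fell in each line. FDPS stood at 80.8, 71.7 and 73.3 CPM in the H460 CCS1477 libraries, against 102, 106 and 108 CPM in the H460 DMSO libraries. H2023 held 57.8, 58.4 and 62.5 CPM with CCS1477 against 95.6, 91.8 and 87.8 CPM with DMSO. ABC-1 held 66.1, 62.9 and 70.9 CPM with CCS1477 against 87.4, 97.2 and 92.0 CPM with DMSO. No CCS1477 library reached the lowest DMSO library of its line. The log2 changes were -0.56 ± 0.05 in H460 (limma adjusted p = 7.15e-05), -0.67 ± 0.05 in H2023 (limma adjusted p = 7.41e-07) and -0.53 ± 0.06 in ABC-1 (limma adjusted p = 1.55e-05). FDPS has processed copies elsewhere in the genome, which makes its counts less certain.

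ACAT2 (chromosome 6, 159760328 to 159779055), the cytosolic thiolase of the first step, fell in both lines where it could be tested. It had 37.4, 37.9 and 41.0 CPM in the H460 CCS1477 libraries, against 61.4, 61.3 and 60.5 CPM in the H460 DMSO libraries. It had 32.3, 34.6 and 31.2 CPM with CCS1477 against 66.0, 59.7 and 59.0 CPM with DMSO in ABC-1. The CCS1477 libraries were lower than every DMSO library in both lines, with log2 changes of -0.73 ± 0.05 in H460 (limma adjusted p = 1.37e-05) and -0.97 ± 0.06 in ABC-1 (limma adjusted p = 6.46e-08). In H2023 ACAT2 was near zero, with 7 reads summed over the CCS1477 libraries and 12 over the DMSO libraries, or 0, 0.246 and 0.182 CPM with CCS1477 against 0.224, 0.219 and 0.260 CPM with DMSO. It was below the filter there and was not tested. Its neighbour TCP1, on the opposite strand, shares 397 exonic bases with it and averaged 370 CPM in H2023, and whether strand was used in the counting is not given in the sources used here.

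HMGCS1 (chromosome 5, 43289395 to 43313512), the cytosolic synthase of HMG-CoA, fell in both NRF2-activated lines. It had 66.0, 69.1 and 69.1 CPM in the H460 CCS1477 libraries, against 98.4, 101 and 96.8 CPM in the H460 DMSO libraries. H2023 gave 75.0, 85.3 and 74.1 CPM with CCS1477 against 130.4, 127 and 114 CPM with DMSO. In ABC-1 the groups overlapped, at 297, 299.7 and 318 CPM with CCS1477 against 299, 290.1 and 292 CPM with DMSO. The log2 changes were -0.61 ± 0.04 in H460 (limma adjusted p = 1.29e-05), -0.72 ± 0.06 in H2023 (limma adjusted p = 3.65e-06) and -0.01 ± 0.04 in ABC-1 (limma adjusted p = 0.906). The kinases MVK (chromosome 12, 109573255 to 109598117) and PMVK (chromosome 1, 154924734 to 154936991) gave small values. MVK, which phosphorylates mevalonate, passed in no line, with -0.17 ± 0.08 in H460 (limma adjusted p = 0.116), -0.19 ± 0.09 in H2023 (limma adjusted p = 0.0849) and 0.01 ± 0.07 in ABC-1 (limma adjusted p = 0.896). Its value passed without CCS1477 replicate 1 in H460 (-0.23, adjusted p = 0.0306) and without CCS1477 replicate 2 in H2023 (-0.25, adjusted p = 0.0350). With transcript rows added it passed in H460 (-0.19, adjusted p = 0.0361), in H2023 (-0.29, adjusted p = 0.00232) and in H2023 minus ABC-1 (-0.28, adjusted p = 0.0121), a difference of changes that was -0.20 ± 0.12 (adjusted p = 0.204) otherwise. PMVK, the next kinase, fell by 0.23 ± 0.09 on the log2 scale in ABC-1 (adjusted p = 0.0403), although its groups overlapped, and missed the threshold with -0.12 ± 0.08 in H460 (limma adjusted p = 0.208) and -0.02 ± 0.09 in H2023 (limma adjusted p = 0.884). Its H460 value was -0.189 to -0.0827 with 1 library left out. The ABC-1 call of PMVK was lost without DMSO replicate 2 (adjusted p = 0.140), DMSO replicate 3 (adjusted p = 0.0662) or CCS1477 replicate 2 (-0.13, adjusted p = 0.165). Library totals as the scaling also ended it (-0.17, adjusted p = 0.0938).

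**Figure D2:**
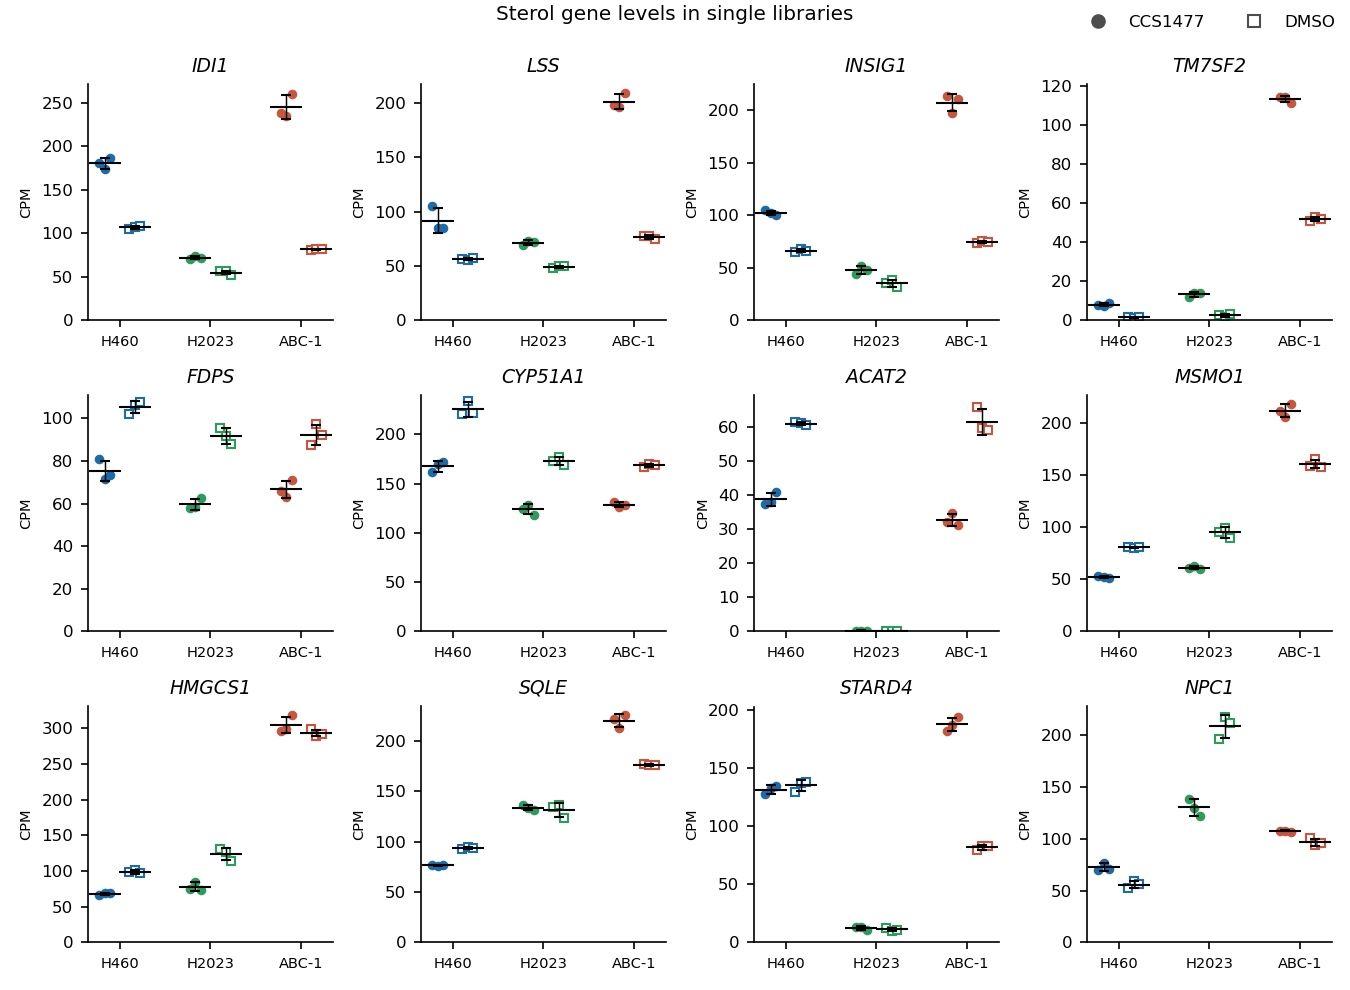
CPM of 12 sterol genes in each of the 18 libraries (vertical axis, linear from 0), with filled circles for CCS1477 and open squares for DMSO, and the mean with SD of 3 libraries in black. IDI1, LSS, INSIG1 and TM7SF2 sit higher with CCS1477 in each line, FDPS and CYP51A1 sit lower, and MSMO1 is lower in H460 and H2023 but higher in ABC-1.

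From squalene to cholesterol, 11 enzymes were measured, and in ABC-1 more of them rose than fell. In ABC-1, 7 of 11 rose and 3 fell, against 33.5% and 32.6% of all genes. In H460, 2 of 11 rose and 6 fell, against 28.2% and 27.9%, and in H2023, 3 of 10 rose and 4 fell, against 28.6% and 31.9%. TM7SF2 (chromosome 11, 65111845 to 65116384), a sterol reductase that acts just after the lanosterol demethylase, was scarce in H460 and H2023. It had 8.04, 7.41 and 8.70 CPM in the H460 CCS1477 libraries, against 1.73, 1.31 and 1.52 CPM in the H460 DMSO libraries. H2023 gave 12.1, 13.9 and 14.2 CPM with CCS1477 against 2.64, 1.92 and 3.25 CPM with DMSO. ABC-1 gave 114, 115 and 112 CPM with CCS1477 against 50.9, 53.0 and 52.1 CPM with DMSO. The CCS1477 means were 5.29, 5.16 and 2.19 times the DMSO means in H460, H2023 and ABC-1. Log2 changes were 2.24 ± 0.14 in H460 (limma adjusted p = 7.55e-06), 2.24 ± 0.17 in H2023 (limma adjusted p = 1.02e-06) and 1.07 ± 0.04 in ABC-1 (limma adjusted p = 2.25e-09). Even with CCS1477, TM7SF2 in H460 and H2023 stayed below its DMSO level in ABC-1.

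LSS (chromosome 21, 46188141 to 46228824), which closes the sterol rings to give lanosterol, rose in every line. LSS had 105, 85.4 and 84.6 CPM in the H460 CCS1477 libraries, against 56.4, 55.7 and 57.5 CPM in the H460 DMSO libraries. It had 69.0, 72.9 and 72.5 CPM with CCS1477 against 48.1, 49.7 and 50.2 CPM with DMSO in H2023, and 198, 196 and 209 CPM with CCS1477 against 77.4, 77.9 and 74.6 CPM with DMSO in ABC-1. Groups did not overlap, and the H460 replicate that stood apart was again the highest of its group. The log2 changes were 0.62 ± 0.08 in H460 (limma adjusted p = 3.53e-04), 0.48 ± 0.05 in H2023 (limma adjusted p = 6.32e-06) and 1.33 ± 0.04 in ABC-1 (limma adjusted p = 5.04e-10). Without the H460 library that stood apart, the H460 change was 0.52 (adjusted p = 1.14e-05). CYP51A1 (chromosome 7, 92112151 to 92134803), the lanosterol demethylase that comes next, fell in every line. It had 162, 169 and 172 CPM in the H460 CCS1477 libraries, against 220.3, 234 and 222 CPM in the H460 DMSO libraries. It had 125, 128 and 119 CPM with CCS1477 against 172, 177 and 169 CPM with DMSO in H2023, and 131, 127 and 128 CPM with CCS1477 against 166, 169.9 and 169 CPM with DMSO in ABC-1. Its groups were apart, with log2 changes of -0.50 ± 0.04 in H460 (limma adjusted p = 4.49e-05), -0.53 ± 0.04 in H2023 (limma adjusted p = 1.21e-06) and -0.45 ± 0.04 in ABC-1 (limma adjusted p = 1.08e-06). A same-strand gene model, AC000120.2, covers 79.4% of the exonic bases of CYP51A1 and had no value in the tables, so the assignment of reads between them is uncertain.

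MSMO1 (chromosome 4, 165327623 to 165343160), the oxidase that starts removal of a pair of methyl groups from the sterol ring, fell in H460 and H2023 and rose in ABC-1. MSMO1 had 52.9, 51.8 and 51.5 CPM in the H460 CCS1477 libraries, against 81.5, 79.9 and 80.8 CPM in the H460 DMSO libraries. It had 61.3, 62.5 and 60.0 CPM with CCS1477 against 95.9, 99.8 and 89.8 CPM with DMSO in H2023. The ABC-1 libraries ran the other way, with 211, 206 and 218 CPM with CCS1477 against 159, 166 and 158 CPM with DMSO. No group overlapped its partner. The log2 changes were -0.70 ± 0.04 in H460 (limma adjusted p = 3.68e-06), -0.68 ± 0.05 in H2023 (limma adjusted p = 6.35e-07) and 0.34 ± 0.04 in ABC-1 (limma adjusted p = 3.00e-05). SQLE (chromosome 8, 124998497 to 125022283), the squalene epoxidase, also fell in H460 and rose in ABC-1. SQLE had 76.4, 75.7 and 77.0 CPM with CCS1477 against 92.3, 94.3 and 93.6 CPM with DMSO in H460, 136, 133 and 131 CPM with CCS1477 against 134, 136 and 124 CPM with DMSO in H2023 and 221, 213 and 226 CPM with CCS1477 against 177, 176 and 176 CPM with DMSO in ABC-1. The groups overlapped in H2023, where the log2 change was -0.03 ± 0.04 (adjusted p = 0.579), and were apart in the others, with -0.36 ± 0.04 in H460 (limma adjusted p = 9.33e-05) and 0.26 ± 0.04 in ABC-1 (limma adjusted p = 8.10e-05). FDFT1 (chromosome 8, 11795573 to 11839309), the squalene synthase, fell in H2023 (-0.21 ± 0.04, adjusted p = 5.45e-04) and rose in ABC-1 (0.54 ± 0.05, adjusted p = 2.82e-06). FDFT1 gave 98.9 ± 2.54 CPM with CCS1477 and 111 ± 1.76 CPM with DMSO in H2023, with 261 ± 12.1 CPM with CCS1477 and 172 ± 7.89 CPM with DMSO in ABC-1 (SD, n = 3 in each group here and after). Its value in H460 was 0.07 ± 0.04 (adjusted p = 0.155), and it passed with scaling by library totals (0.14, adjusted p = 0.0106).

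NSDHL (chromosome X, 152830967 to 152869729), a decarboxylating dehydrogenase of the same demethylation, fell in every line. NSDHL averaged 41.2 ± 1.18 CPM with CCS1477 and 48.0 ± 1.08 CPM with DMSO in H460, 16.1 ± 0.381 CPM with CCS1477 and 19.9 ± 0.794 CPM with DMSO in H2023 and 33.4 ± 0.860 CPM with CCS1477 and 41.3 ± 1.62 CPM with DMSO in ABC-1. Its log2 changes were -0.29 ± 0.05 in H460 (limma adjusted p = 8.38e-04), -0.36 ± 0.07 in H2023 (limma adjusted p = 0.00113) and -0.36 ± 0.06 in ABC-1 (limma adjusted p = 2.14e-04). HSD17B7 (chromosome 1, 162790702 to 162812817), the ketoreductase that completes the cycle and has a near-identical pseudogene, fell in H460 (-0.38 ± 0.07, adjusted p = 0.00204) and missed the threshold with -0.15 ± 0.10 in H2023 (limma adjusted p = 0.244) and -0.16 ± 0.09 in ABC-1 (limma adjusted p = 0.137). With 1 library left out, its H2023 value ranged over -0.250 to -0.0935. EBP (chromosome X, 48521158 to 48528716), the isomerase that shifts a double bond in the ring, fell in H460 (-0.29 ± 0.05, adjusted p = 0.00205) and ABC-1 (-0.37 ± 0.07, adjusted p = 4.54e-04), with 75.8 ± 4.49 CPM with CCS1477 and 88.4 ± 3.48 CPM with DMSO in H460, and 47.6 ± 4.02 CPM with CCS1477 and 58.8 ± 1.98 CPM with DMSO in ABC-1. The last steps, SC5D (chromosome 11, 121292453 to 121308694), a desaturase, and DHCR7 (chromosome 11, 71428193 to 71452868), a reductase, rose in ABC-1. SC5D had 234, 225 and 228 CPM with CCS1477 against 169, 170.4 and 179.9 CPM with DMSO in ABC-1, with the groups apart (log2 change 0.34 ± 0.04, adjusted p = 9.99e-06). DHCR7 had 271, 257 and 269 CPM with CCS1477 against 180.0, 181 and 182 CPM with DMSO in ABC-1, also apart (log2 change 0.49 ± 0.04, adjusted p = 4.46e-07). DHCR7 also rose in H2023 (0.23 ± 0.06, adjusted p = 0.00604), while the values of SC5D in H2023 (0.09 ± 0.04, adjusted p = 0.0980) and of both genes in H460 (-0.07 for SC5D and -0.02 for DHCR7) missed the threshold. SC5D in H2023 passed with scaling by library totals (0.14, adjusted p = 0.0142) and by trimmed means of M values (0.10, adjusted p = 0.0476).

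Among the 5 sensing genes there were 3 that rose and 1 that fell in H460 (28.2% and 27.9% of all genes), 2 and 2 in H2023 (28.6% and 31.9%), and 3 and 1 in ABC-1 (33.5% and 32.6%). INSIG1 (chromosome 7, 155297776 to 155310235), the anchor that retains SCAP, rose in every line. INSIG1 had 104, 102 and 100.2 CPM in the H460 CCS1477 libraries, against 64.9, 68.3 and 65.7 CPM in the H460 DMSO libraries. It had 44.3, 51.7 and 47.7 CPM with CCS1477 against 35.3, 38.4 and 31.7 CPM with DMSO in H2023. In ABC-1 it had 213, 197 and 210.1 CPM with CCS1477 against 74.0, 75.4 and 74.1 CPM with DMSO. CCS1477 means were 1.54, 1.36 and 2.78 times those with DMSO, with no overlap. Log2 changes were 0.55 ± 0.04 in H460 (limma adjusted p = 1.93e-05), 0.39 ± 0.08 in H2023 (limma adjusted p = 0.00143) and 1.41 ± 0.04 in ABC-1 (limma adjusted p = 3.89e-10). INSIG2 (chromosome 2, 118088452 to 118110997), its paralog, rose in H460 to 11.5, 8.33 and 10.9 CPM with CCS1477, against 6.72, 6.94 and 6.86 CPM with DMSO (log2 change 0.49 ± 0.13, adjusted p = 0.0111). INSIG2 missed the threshold with 0.14 ± 0.09 in H2023 (limma adjusted p = 0.225) and 0.06 ± 0.08 in ABC-1 (limma adjusted p = 0.502), and with 1 library left out its H2023 value was 0.0777 to 0.218. SCAP (chromosome 3, 47413694 to 47477126), the escort of the SREBPs, rose in each line. SCAP averaged 68.2 ± 1.43 CPM with CCS1477 and 46.7 ± 0.761 CPM with DMSO in H460, 73.4 ± 3.74 CPM with CCS1477 and 53.8 ± 3.01 CPM with DMSO in H2023 and 78.8 ± 1.14 CPM with CCS1477 and 56.5 ± 2.63 CPM with DMSO in ABC-1. Its log2 changes were 0.47 ± 0.04 in H460 (limma adjusted p = 4.07e-05), 0.39 ± 0.06 in H2023 (limma adjusted p = 1.14e-04) and 0.42 ± 0.04 in ABC-1 (limma adjusted p = 4.60e-06).

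SREBF2 (chromosome 22, 41833079 to 41907308), which encodes the SREBP that favours cholesterol genes and whose promoter holds the sterol regulatory letters shown first, fell in each line. SREBF2 had 94.9, 87.1 and 78.3 CPM in the H460 CCS1477 libraries, against 104, 104 and 102 CPM in the H460 DMSO libraries. It had 115, 109 and 105 CPM with CCS1477 against 127, 132 and 119 CPM with DMSO in H2023. In ABC-1 it had 116, 113 and 116 CPM with CCS1477 against 119, 120.5 and 117 CPM with DMSO. The groups did not overlap, but in ABC-1 they lay close together. Log2 changes were -0.33 ± 0.06 in H460 (limma adjusted p = 0.00300), -0.25 ± 0.05 in H2023 (limma adjusted p = 0.00112) and -0.11 ± 0.04 in ABC-1 (limma adjusted p = 0.0274). The ABC-1 call was lost without DMSO replicate 1 (adjusted p = 0.0526), DMSO replicate 2 (adjusted p = 0.0652), CCS1477 replicate 2 (adjusted p = 0.104) or CCS1477 replicate 3 (adjusted p = 0.0551). Library totals as the scaling also ended it (-0.05, adjusted p = 0.167), as did a fit over all 18 libraries (adjusted p = 0.0988). SREBF1 (chromosome 17, 17810399 to 17837002), which encodes SREBPs that lean towards fatty acid genes, moved differently by line. SREBF1 averaged 51.8 ± 2.62 CPM with CCS1477 and 58.3 ± 3.86 CPM with DMSO in H2023 and 188 ± 8.45 CPM with CCS1477 and 142 ± 3.17 CPM with DMSO in ABC-1. It fell by 0.22 ± 0.06 on the log2 scale in H2023 (adjusted p = 0.00902), with overlapping groups, and rose by 0.35 ± 0.04 in ABC-1 (limma adjusted p = 3.71e-05). In H460 it had 150.4, 132 and 119 CPM with CCS1477 against 117, 121 and 117 CPM with DMSO (log2 change 0.10 ± 0.08, adjusted p = 0.313). That value was 0.01 without CCS1477 replicate 1, which stood apart, and it passed without CCS1477 replicate 3 (0.18, adjusted p = 0.0463). Reads of a few members could be shared with genes on the opposite strand: SREBF1 shares 556 exonic bases with RAI1, NPC1 604 with RMC1, MVK 306 with MMAB and NPC2 103 with ISCA2.

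Of the genes of uptake, transport and efflux, 4 of 5 rose in H460, against 28.2% of all genes. In H2023, 3 of 5 rose and 1 fell, against 28.6% and 31.9%. The 4 tested in ABC-1 rose, against 33.5%, and the call of NPC1 among them was lost under several alternatives given with its values. MYLIP (chromosome 6, 16129125 to 16148248) encodes a ubiquitin ligase that marks lipoprotein receptors for breakdown. MYLIP had 15.5, 13.8 and 13.1 CPM with CCS1477 against 9.46, 9.82 and 9.94 CPM with DMSO in H460, 9.44, 9.58 and 8.49 CPM with CCS1477 against 3.42, 3.72 and 3.64 CPM with DMSO in H2023 and 38.6, 38.9 and 41.0 CPM with CCS1477 against 24.0, 23.3 and 24.9 CPM with DMSO in ABC-1. Groups were apart in each line, with log2 changes of 0.45 ± 0.08 in H460 (limma adjusted p = 0.00191), 1.24 ± 0.12 in H2023 (limma adjusted p = 5.19e-06) and 0.65 ± 0.06 in ABC-1 (limma adjusted p = 1.23e-06). ABCA1 (chromosome 9, 104781002 to 104928237), the pump that loads cholesterol onto lipid-poor apolipoproteins, rose in both lines with values. ABCA1 had 13.9, 12.9 and 15.0 CPM in the H460 CCS1477 libraries, against 7.50, 8.32 and 7.39 CPM in the H460 DMSO libraries, and 16.5, 15.3 and 14.4 CPM with CCS1477 against 11.2, 12.6 and 11.8 CPM with DMSO in H2023. These groups did not overlap, and the log2 changes were 0.76 ± 0.09 in H460 (limma adjusted p = 2.09e-04) and 0.32 ± 0.09 in H2023 (limma adjusted p = 0.00841). NPC2 (chromosome 14, 74476192 to 74494177), the soluble carrier that hands cholesterol to NPC1 in the lysosome, rose in every line. NPC2 had 52.8, 49.5 and 50.7 CPM with CCS1477 against 23.9, 23.6 and 22.9 CPM with DMSO in H460, 21.8, 25.1 and 21.5 CPM with CCS1477 against 12.8, 12.8 and 15.9 CPM with DMSO in H2023 and 124, 120.2 and 129 CPM with CCS1477 against 80.1, 88.7 and 78.8 CPM with DMSO in ABC-1. CCS1477 libraries were higher throughout, with log2 changes of 1.04 ± 0.05 in H460 (limma adjusted p = 1.88e-06), 0.66 ± 0.10 in H2023 (limma adjusted p = 1.90e-04) and 0.53 ± 0.06 in ABC-1 (limma adjusted p = 1.00e-05).

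NPC1 (chromosome 18, 23506184 to 23586898), the lysosomal membrane exporter, was the one member called in opposite directions in H460 and H2023. NPC1 had 70.1, 77.0 and 70.7 CPM in the H460 CCS1477 libraries, against 52.2, 59.0 and 56.0 CPM in the H460 DMSO libraries. It had 139, 130.2 and 122 CPM in the H2023 CCS1477 libraries, against 197, 218 and 212 CPM in the H2023 DMSO libraries. In ABC-1 it had 108, 108 and 107 CPM with CCS1477 against 100.5, 93.8 and 95.6 CPM with DMSO. Groups were apart in each line, with log2 changes of 0.31 ± 0.06 in H460 (limma adjusted p = 0.00309), -0.73 ± 0.05 in H2023 (limma adjusted p = 8.38e-07) and 0.10 ± 0.04 in ABC-1 (limma adjusted p = 0.0380). The small ABC-1 call was lost without any 1 of 5 libraries: DMSO replicate 2 (adjusted p = 0.0578), DMSO replicate 3 (adjusted p = 0.106) and CCS1477 replicates 1 (adjusted p = 0.115), 2 (adjusted p = 0.0733) and 3 (adjusted p = 0.0822). It was 0.16 (adjusted p = 0.00233) with scaling by library totals. It was lost with scaling by trimmed means of M values (adjusted p = 0.0556) and in a fit over 18 libraries (adjusted p = 0.137). STARD4 (chromosome 5, 111496033 to 111512590), which carries sterols between membranes, rose in ABC-1. STARD4 had 182, 187 and 194 CPM in the ABC-1 CCS1477 libraries, against 79.4, 83.1 and 82.6 CPM in the ABC-1 DMSO libraries. The H460 groups overlapped, at 127, 133 and 134 CPM with CCS1477 against 129, 137 and 138 CPM with DMSO, as did those of H2023, at 12.8, 13.6 and 10.8 CPM with CCS1477 against 12.3, 9.97 and 11.0 CPM with DMSO. The log2 changes of STARD4 were -0.11 ± 0.04 in H460 (limma adjusted p = 0.0637), 0.10 ± 0.11 in H2023 (limma adjusted p = 0.444) and 1.14 ± 0.04 in ABC-1 (limma adjusted p = 1.25e-09). With 1 library left out, its H2023 value ranged over 0.0330 to 0.197. The H460 value passed without DMSO replicate 1 (-0.14, adjusted p = 0.0414).

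Whether the lines responded differently was tested with limma on all 18 libraries together, as the log2 change in one line minus that in another, for 26 members with a row in all tables. Relative to ABC-1, the response of H460 differed for 16 members, against 46.5% of all 13551 genes. It was lower for 12 and higher for 4, against 22.0% and 24.5% of all genes. The response of H2023 differed from that of ABC-1 for 15, against 41.0%, with 13 lower and 2 higher, against 21.6% and 19.5%. Between H460 and H2023, 9 differed, against 27.3%, with 6 higher in H460 and 3 lower, against 16.6% and 10.8%. The median difference over the members was -0.22 for H460 minus ABC-1, -0.23 for H2023 minus ABC-1 and 0.05 for H460 minus H2023, beside 0.01, -0.02 and 0.03 over all genes. The first pair of comparisons shares the ABC-1 libraries, so their values are set side by side and are not independent. Without the H460 library that stood apart, 14 members were lower and 3 higher in H460 minus ABC-1, and 3 lower and 5 higher in H460 minus H2023. In H460 minus ABC-1, 12 members were called without H460 DMSO replicate 1, beside 16 with all libraries. Over all genes, 6304 were called there with all libraries, 6004 without that replicate and 6197 without the library that stood apart.

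**Figure D3:**
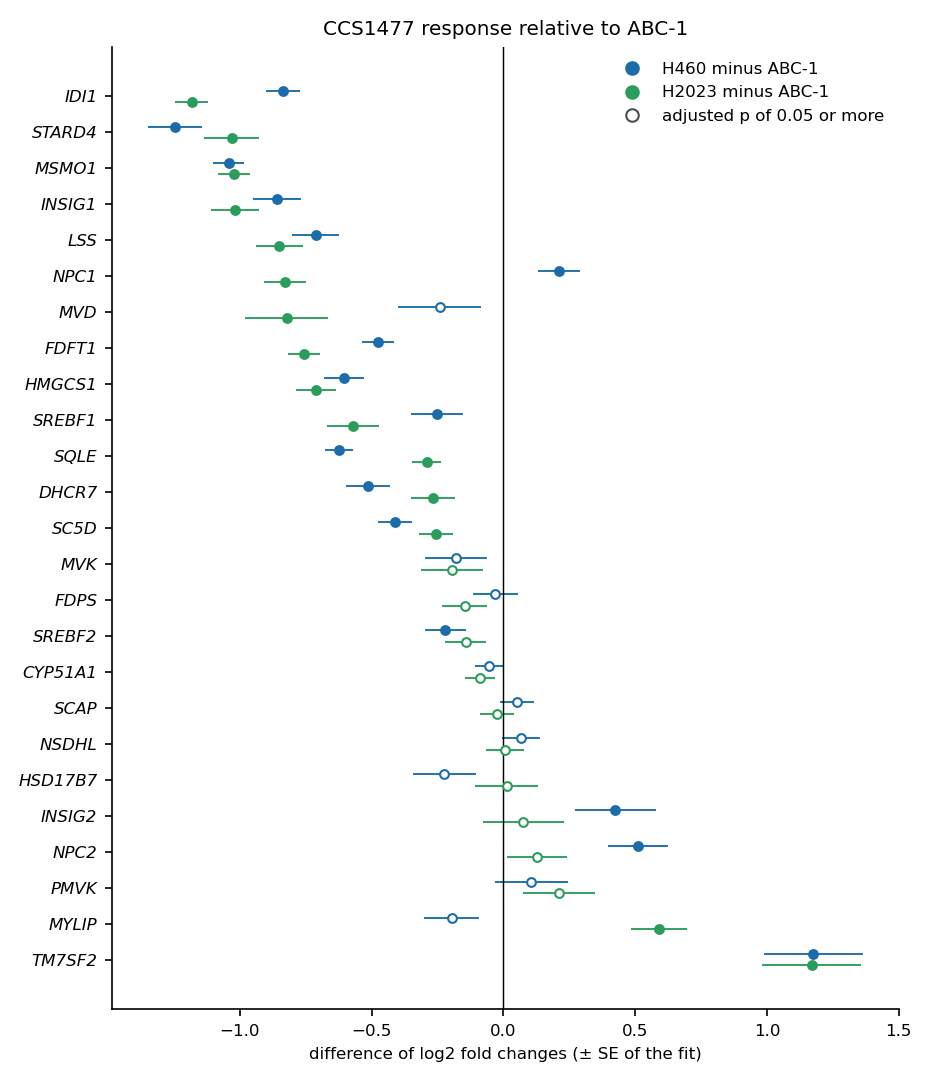
Difference of log2 fold changes, H460 minus ABC-1 and H2023 minus ABC-1, with the SE of the fit, for the 25 genes above the floor in all 3 lines (vertical axis, ordered by H2023 minus ABC-1). Filled points passed the adjusted p of 0.05; IDI1, STARD4, MSMO1 and INSIG1 lie furthest to the left for H2023 and TM7SF2 furthest to the right in both comparisons.

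For STARD4 the change in H460 minus that in ABC-1 was -1.25 ± 0.10 (adjusted p = 2.57e-08), and the change in H2023 minus that in ABC-1 was -1.03 ± 0.10 (adjusted p = 3.67e-07). For IDI1 the differences from ABC-1 were -0.84 ± 0.06 (adjusted p = 7.98e-09) in H460 and -1.18 ± 0.06 (adjusted p = 1.53e-10) in H2023. The differences of MSMO1, which changed sign between lines, were -1.04 ± 0.06 (adjusted p = 2.51e-10) and -1.02 ± 0.06 (adjusted p = 4.65e-10). INSIG1 gave -0.86 ± 0.09 (adjusted p = 5.22e-07) in H460 and -1.02 ± 0.09 (adjusted p = 8.40e-08) in H2023. LSS gave -0.71 ± 0.09 (adjusted p = 3.93e-06) and -0.85 ± 0.09 (adjusted p = 6.23e-07). All 5 of these genes rose in ABC-1. The same sign held for HMGCS1 (-0.60 and -0.71), FDFT1 (-0.48 and -0.76), SQLE (-0.62 and -0.29), DHCR7 (-0.51 and -0.27) and SC5D (-0.41 and -0.25), all called. TM7SF2 went the other way, with 1.18 ± 0.19 (adjusted p = 5.80e-05) and 1.17 ± 0.19 (adjusted p = 7.53e-05), from a DMSO level far lower than that of ABC-1, and with a constant of 1 on a CPM scale its H460 difference was 0.74.

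NPC1 gave the largest difference between H460 and H2023 among the members, at 1.04 ± 0.08 (adjusted p = 3.43e-08). H460 minus H2023 was -0.79 ± 0.10 (adjusted p = 2.27e-05) for MYLIP and 0.58 ± 0.16 (adjusted p = 0.0102) for MVD. MVD in H460 minus ABC-1 was -0.24 ± 0.16 (adjusted p = 0.226), and it passed without the library that stood apart (-0.39, adjusted p = 0.0165). MYLIP in H460 minus ABC-1 was -0.20 ± 0.10 (adjusted p = 0.139) and also passed without that library (-0.26, adjusted p = 0.0451). ACAT2 in H460 minus ABC-1 was 0.24 ± 0.23 (adjusted p = 0.429) and passed with limma-voom (0.24, adjusted p = 0.0420). The SE of 0.23 comes from a spread shared by all 18 libraries, including those of H2023, where ACAT2 was at the floor. With each line fitted alone, the SE of its change was 0.05 in H460 and 0.06 in ABC-1. The genes that fell in every line showed no called difference for FDPS, CYP51A1 or NSDHL in any pair of lines. For CYP51A1 the differences were -0.05 ± 0.06 (adjusted p = 0.477) in H460 minus ABC-1 and -0.09 ± 0.06 (adjusted p = 0.240) in H2023 minus ABC-1. SCAP likewise gave 0.05 ± 0.06 (adjusted p = 0.535) and -0.02 ± 0.06 (adjusted p = 0.803). A p above the threshold does not show that these responses were equal.

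Some called differences were close to the threshold and were lost without single libraries. For H460 minus ABC-1, INSIG2 was 0.42 ± 0.15 (adjusted p = 0.0307), and its call was lost without H460 DMSO replicate 1, H460 CCS1477 replicates 1 or 3, ABC-1 DMSO replicates 2 or 3 or ABC-1 CCS1477 replicate 2 (0.34 to 0.41, adjusted p = 0.0561 to 0.0836). With transcript rows added it was 0.27 (adjusted p = 0.0950). NPC1 was 0.21 ± 0.08 (adjusted p = 0.0357) and was lost without H460 DMSO replicates 1 or 3, H460 CCS1477 replicate 2, ABC-1 DMSO replicates 1 or 2 or ABC-1 CCS1477 replicates 2 or 3 (0.16 to 0.22, adjusted p = 0.0502 to 0.104). SREBF2 was -0.22 ± 0.08 (adjusted p = 0.0281) and was lost without H460 DMSO replicates 1 or 2, H460 CCS1477 replicate 3, ABC-1 DMSO replicates 1 or 3 or ABC-1 CCS1477 replicates 1 or 3 (-0.22 to -0.15, adjusted p = 0.0504 to 0.0788). SREBF1 was -0.25 ± 0.10 (adjusted p = 0.0449) and was lost without H460 DMSO replicates 1, 2 or 3, H460 CCS1477 replicates 2 or 3, ABC-1 DMSO replicates 1 or 3 or ABC-1 CCS1477 replicates 1 or 3 (-0.27 to -0.17, adjusted p = 0.0545 to 0.130). Library totals as the scaling also ended the SREBF1 call (-0.24, adjusted p = 0.0501). These 4 genes code for sterol sensing proteins and a lysosomal exporter. For H460 minus H2023, DHCR7 was -0.25 ± 0.08 (adjusted p = 0.0355) and was lost without H460 DMSO replicates 2 or 3, H460 CCS1477 replicates 2 or 3, H2023 DMSO replicates 1 or 3 or H2023 CCS1477 replicates 1 or 2 (-0.25 to -0.19, adjusted p = 0.0564 to 0.0960). SREBF1 was 0.32 ± 0.10 (adjusted p = 0.0230) and was lost without H460 CCS1477 replicate 1, H2023 DMSO replicate 2 or H2023 CCS1477 replicate 2 (0.23 to 0.28, adjusted p = 0.0529 to 0.0652). In the other direction, INSIG2 passed in H460 minus H2023 without H460 CCS1477 replicate 2 (0.49, adjusted p = 0.0101), against 0.35 with all libraries. SC5D passed there without H460 CCS1477 replicate 3 (-0.18, adjusted p = 0.0487). STARD4 passed there without H2023 DMSO replicate 1 (-0.29, adjusted p = 0.0476) or H2023 CCS1477 replicate 3 (-0.31, adjusted p = 0.0183).

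DMSO levels in CPM are described and not tested, since each table was scaled separately. In H460 the members had a median DMSO level of 58.8 CPM, in H2023 of 49.3 CPM and in ABC-1 of 81.7 CPM. Of 26 genes with a row in every table, 15 had all ABC-1 DMSO libraries above those of both other lines, and no gene had them below both. The share of all genes in that order was not computed, so the count is not read as particular to these genes. Among members above the floor in every line, TM7SF2 had the highest ratio of its highest to its lowest line (34.2), with 1.52 ± 0.206 CPM in H460 and 2.60 ± 0.667 CPM in H2023, beside 52.0 ± 1.07 CPM in ABC-1. HMGCS1 had 98.8 ± 2.29 CPM in H460 and 124 ± 8.51 CPM in H2023, beside 294 ± 4.75 CPM in ABC-1. SC5D, DHCR7 and MSMO1 were also highest in ABC-1, at 173 ± 6.03 CPM, 181 ± 0.950 CPM and 161 ± 4.27 CPM. NPC2 stood at 23.5 ± 0.501 CPM in H460 and 13.9 ± 1.79 CPM in H2023, beside 82.6 ± 5.34 CPM in ABC-1.

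Other genes broke this order. STARD4 was highest in H460, with 135 ± 4.73 CPM, with 11.1 ± 1.19 CPM in H2023, beside 81.7 ± 1.97 CPM in ABC-1. NPC1 was highest in H2023, with 209 ± 10.8 CPM, beside 55.7 ± 3.43 CPM in H460 and 96.6 ± 3.46 CPM in ABC-1. IDI1 and CYP51A1 were highest in H460, at 107 ± 1.80 CPM and 225 ± 7.30 CPM. The DMSO libraries of the 2 highest lines overlapped for SCAP, SREBF2 and ACAT2, and those of the 2 lowest for MVD, FDPS, CYP51A1 and HSD17B7. Per kilobase of exon, CYP51A1 had the highest DMSO level of the members in H460 (62.8 CPM per kb) and H2023 (48.2 CPM per kb), and HMGCS1 in ABC-1 (62.4 CPM per kb). The lowest per kilobase were TM7SF2 in H460 (0.446 CPM per kb), ACAT2 in H2023 (0.0545 CPM per kb) and HSD17B7 in ABC-1 (2.51 CPM per kb).

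**Figure D4:**
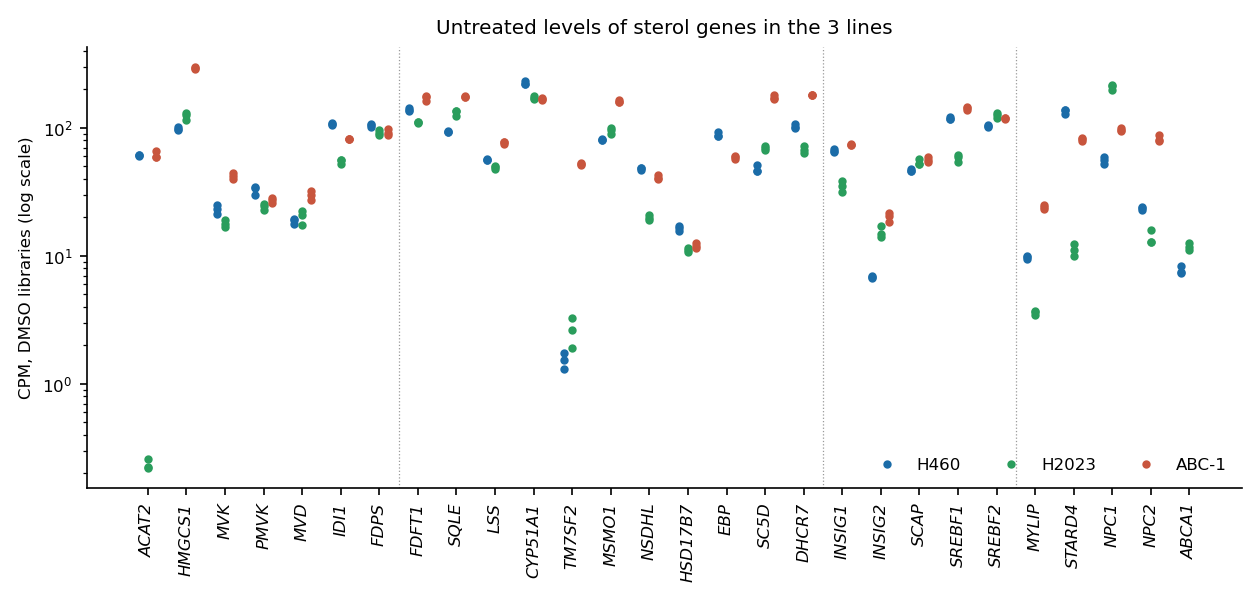
CPM of the sterol genes in single DMSO libraries (vertical axis, log scale), 3 libraries per line, grouped by role from mevalonate steps at the left to transport at the right. TM7SF2 separates ABC-1 (52.0 CPM) from H460 (1.52 CPM) and H2023 (2.60 CPM), and ACAT2 lies near the floor in H2023 (0.234 CPM).

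A further list of 28 genes of sterol handling, also chosen with earlier results known, was read in the same fits. In H460, 10 of 26 tested rose and 11 fell, against 28.2% and 27.9% of all genes. In H2023, 8 of 26 rose and 11 fell, against 28.6% and 31.9%, and in ABC-1, 13 of 24 rose and 5 fell, against 33.5% and 32.6%. Their median log2 change was -0.03 in H460 beside 0.00 over all genes tested, 0.02 in H2023 beside -0.01, and 0.16 in ABC-1 beside 0.01. TMEM97, a sterol-regulated protein that binds NPC1, fell in each line. It averaged 102 ± 0.447 CPM with CCS1477 and 138 ± 2.60 CPM with DMSO in H460 (log2 change -0.50 ± 0.04, adjusted p = 1.70e-05), 51.7 ± 2.64 CPM with CCS1477 and 118 ± 1.49 CPM with DMSO in H2023 (log2 change -1.23 ± 0.05, adjusted p = 6.60e-09) and 11.2 ± 2.30 CPM with CCS1477 and 35.5 ± 1.18 CPM with DMSO in ABC-1 (log2 change -1.72 ± 0.12, adjusted p = 2.51e-07). ABCG1, a cholesterol exporter and LXR target, rose in H460, at 7.70 ± 0.337 CPM with CCS1477 and 1.53 ± 0.308 CPM with DMSO (log2 change 2.18 ± 0.15, adjusted p = 1.45e-05), and in H2023, at 11.5 ± 0.860 CPM with CCS1477 and 1.38 ± 0.512 CPM with DMSO (log2 change 2.85 ± 0.20, adjusted p = 6.50e-07). It was below the filter in ABC-1. GRAMD1B, which moves cholesterol from the plasma membrane to the endoplasmic reticulum, fell by 0.39 ± 0.04 in H460 (adjusted p = 9.76e-05) and 0.90 ± 0.04 in H2023 (adjusted p = 2.33e-08), and had no value in ABC-1. NCEH1, a hydrolase of cholesterol esters, fell by 0.25 ± 0.04 in H460 (adjusted p = 7.33e-04) and 0.96 ± 0.04 in H2023 (adjusted p = 2.08e-08), and rose by 0.14 ± 0.05 in ABC-1 (adjusted p = 0.0209). RNF145, a sterol-responsive ubiquitin ligase, fell by 0.78 ± 0.04 in H2023 (adjusted p = 9.77e-08) and rose by 0.28 ± 0.06 in ABC-1 (adjusted p = 0.00161), with -0.12 ± 0.06 in H460 (adjusted p = 0.136). RXRA, the partner of the LXRs, fell by 1.55 ± 0.05 in ABC-1 (adjusted p = 4.62e-10), and also by 0.57 ± 0.08 in H460 (adjusted p = 4.53e-04) and 0.83 ± 0.05 in H2023 (adjusted p = 1.02e-07). NR1H2, which encodes an LXR, rose by 0.50 ± 0.05 in ABC-1 (adjusted p = 5.40e-06), with 0.18 ± 0.09 in H460 (adjusted p = 0.123) and 0.00 ± 0.04 in H2023 (adjusted p = 0.960). MBTPS1, the first Golgi protease that cuts the SREBPs, rose by 0.54 ± 0.04 in ABC-1 (adjusted p = 2.14e-07), and also by 0.21 ± 0.04 in H460 (adjusted p = 0.00268) and 0.38 ± 0.04 in H2023 (adjusted p = 1.71e-05).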

How the data were processed

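An MGI directional kit turned total RNA of the 18 samples into libraries, read in pairs on a DNBSEQ instrument, per the labels. How reads were aligned and counted, and whether by strand, is not given in the sources used here. The authors deposited log2 values in 1 table per line. The values show how they were made: log2 of whole reads times 1 factor per library, plus 4, so a row without reads stands at 2. Undoing this gave whole reads, within 0.1, for 100% of values of up to 1000 reads. Each table was scaled separately. Symbols were matched by gene ID (16421 of 16424 gene rows in H460, all 18140 in H2023, all 16910 in ABC-1), and coordinates came from GENCODE 29 on GRCh38, the build in the submitters' processing notes. Transcript rows, with 9.19 to 10.7% of reads, were left out of the main fits.

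Limma-trend (limma 3.58.1, R 4.3.3) was fitted to the log2 values of each table for gene rows that reached 1 CPM in 3 or more of the 6 libraries, two-sided, with Benjamini-Hochberg adjustment over all genes and a threshold of 0.05. Differences between lines came from 1 fit over the 18 libraries. The design named a count model only for raw counts, so none was used. The fits were also run on simulated reads, with the same fixed extra spread for all genes and libraries. That setting does not copy the H460 library that stood apart, so it does not check the p-values of the real libraries. All 28 members are named, with up to 4 further genes per line that passed with the smallest p. A gene that this rule would name is not reported here. The members and lists were chosen with earlier results of these data known. Alternatives were other scalings, limma-voom, filters, added constants of 0.1 and 1, transcript rows added, replicate blocks, and each library left out. Replicate numbers were not treated as pairs in the main fits, since no label says that they mark a shared batch. Same-numbered libraries correlated at -0.10 to 0.10 in their deviations, which does not exclude one.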

Additional observations from a re-analysis of the deposited data

Results flagged for a closer look

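These differences of response between lines, as the log2 change in the first line minus that in the second, passed the test of the difference itself (limma, adjusted p under 0.05). With 76 member differences read in the 3 pairs of lines, 40 passed. ACAT2 in the pairs with H2023 is left out of the 76, since it was at the floor there. Of all genes, 46.5% passed in H460 minus ABC-1, 41.0% in H2023 minus ABC-1 and 27.3% in H460 minus H2023. In H460 minus ABC-1, the negative ones were STARD4 -1.25, MSMO1 -1.04, INSIG1 -0.86, IDI1 -0.84, LSS -0.71, SQLE -0.62, HMGCS1 -0.60, DHCR7 -0.51, FDFT1 -0.48, SC5D -0.41, SREBF1 -0.25 and SREBF2 -0.22. The positive ones were TM7SF2 1.18, NPC2 0.51, INSIG2 0.42 and NPC1 0.21. In H2023 minus ABC-1, the negative ones were IDI1 -1.18, STARD4 -1.03, MSMO1 -1.02, INSIG1 -1.02, LSS -0.85, NPC1 -0.83, MVD -0.82, FDFT1 -0.76, HMGCS1 -0.71, SREBF1 -0.57, SQLE -0.29, DHCR7 -0.27 and SC5D -0.25, and the positive ones were TM7SF2 1.17 and MYLIP 0.59. In H460 minus H2023, they were NPC1 1.04, MVD 0.58, NPC2 0.38, IDI1 0.35, SREBF1 0.32 and FDFT1 0.28 on the positive side, and MYLIP -0.79, SQLE -0.33 and DHCR7 -0.25 on the negative side. Groups of 3 libraries are too small for a test of single libraries.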

How the results depend on the processing

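Of 62 member changes called within a line, 59 kept their direction and their call under every alternative and left-out library, as did 34 of the 40 called differences between lines, and no called value changed sign. The others are PMVK, SREBF2 and NPC1 in ABC-1 and 6 differences given with their libraries in the report. The number of members called within a line was 21 to 22 in H460, 18 to 19 in H2023 and 20 to 22 in ABC-1 with 1 library left out. It was 12 to 17 for H460 minus ABC-1, 15 to 16 for H2023 minus ABC-1 and 7 to 10 for H460 minus H2023. Over all genes, 6510 to 7768 were called in H460, 8142 to 8265 in H2023 and 8407 to 8699 in ABC-1 with 1 library left out. With all libraries, 7584, 8824 and 8949 were called in those lines. Counts for pairs with H2023 include ACAT2, which was at the floor there. Over the alternatives, ACAT2 passed in 6 of 21 for H2023 minus ABC-1 and 3 of 21 for H460 minus H2023. With the replicate block, 22, 18 and 20 members were called in H460, H2023 and ABC-1, and 15, 16 and 7 in the 3 differences in that order. Over all genes, 7356, 8806 and 8768 were called in those lines with the block. In H460 minus ABC-1 it gave 6114 over all genes, beside 6304 without it. Deviations of same-numbered libraries correlated at 0.01 to 0.10 in H460, 0.03 to 0.04 in H2023 and -0.10 to -0.04 in ABC-1. Libraries with unlike numbers gave -0.10 to 0.05, -0.03 to -0.01 and -0.02 to 0.10 in those lines. These small values do not settle whether the numbers mark a shared batch. Under the block, PMVK (adjusted p = 0.0542), NPC1 (0.0671) and SREBF2 (0.0574) in ABC-1, SREBF1 in H460 minus ABC-1 (0.0779) and in H460 minus H2023 (0.0505) and DHCR7 in H460 minus H2023 (0.0638) no longer passed, and STARD4 in H460 did (0.0443).

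Values that changed sign were not called. With library totals, they were SC5D in H460 (0.00265), DHCR7 in H460 (0.0544), SQLE in H2023 (0.0219), PMVK in H2023 (0.0346), HMGCS1 in ABC-1 (0.0541) and NSDHL in H2023 minus ABC-1 (-0.00208). With relative log expression they were MVK in ABC-1 (-0.000736), TM7SF2 in H460 minus H2023 (-0.00840) and MVK in H460 minus H2023 (-0.000304). With the trimmed mean of M values they were MVK in ABC-1 (-0.00428), SCAP in H2023 minus ABC-1 (0.00593), TM7SF2 in H460 minus H2023 (-0.0102) and MVK in H460 minus H2023 (-0.00225). With transcript rows added they were MVK in ABC-1 (-0.0128), FDPS in H460 minus ABC-1 (0.0297) and INSIG2 in H2023 minus ABC-1 (-7.86e-05). TM7SF2 in H460 minus H2023 was -0.0233 with limma-voom, -0.0337 with a constant of 0.1 and -0.18 with a constant of 1. With 1 library left out, the ranges that cross 0 were DHCR7 in H460 -0.0770 to 0.0417, MVD in H2023 -0.0480 to 0.131, PMVK in H2023 -0.0725 to 0.0885, SQLE in H2023 -0.0747 to 0.00297, HMGCS1 in ABC-1 -0.0378 to 0.0135, INSIG2 in ABC-1 -0.0112 to 0.104, MVK in ABC-1 -0.0498 to 0.0447, FDPS in H460 minus ABC-1 -0.0853 to 0.0160, NSDHL in H2023 minus ABC-1 -0.0424 to 0.0410, SCAP in H2023 minus ABC-1 -0.0619 to 0.0274, HSD17B7 in H2023 minus ABC-1 -0.0893 to 0.0669, TM7SF2 in H460 minus H2023 -0.155 to 0.185, MVK in H460 minus H2023 -0.0474 to 0.0827, MSMO1 in H460 minus H2023 -0.0619 to 0.0214. The cause of these changes was not tested. With transcript rows added, the median DMSO level in CPM was 61.6 (H460), 52.9 (H2023) and 86.9 (ABC-1), and with the trimmed mean of M values it was 65.2 for H460 and 47.8 for H2023. Leaving out 1 DMSO library gave 58.7 to 59.2 (H460), 48.9 to 50.0 (H2023) and 79.5 to 81.8 (ABC-1). Counting error limits TM7SF2 in H460 and H2023 and ACAT2 in H2023.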
